A study of Mus musculus with 6 samples.

Results

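The interferon-gamma induced GTPases measured here are 9 mouse genes, Ifi47, Igtp, Irgm1, Irgm2 and Iigp1 of the immunity-related GTPase (IRG) family and Gbp2, Gbp3, Gbp6 and Gbp7 of the guanylate-binding protein (GBP) family, of 19057 genes named on the array. They were measured in mature thymic natural killer T (NKT) cells, CD44+ and NK1.1+, on Illumina mouse arrays, 1 array per sample. One group came from Captain Morgan, a DOCK8 deficient animal strain, and the other from wild type mice, both of strain C57BL/6, with 3 biological replicates each. The labels give no age or treatment and are silent on pooling of animals, so each p-value reflects variation among these samples, which may be partly technical. All 18 probes annotated with 1 of the 9 symbols alone were taken. A probe was kept when its detection p-value, the scanner's test against negative controls, was under 0.05 on 3 or more of the 6 arrays. The probes were thus selected on detection p-values, while the 9 genes themselves were chosen with earlier results of this contrast known, so the p-values below describe the fit and are no independent support for a choice of genes. The rule kept 13 probes of 7 genes and left 5 probes, all 4 of Iigp1 and the single probe of Gbp6, as undetected.

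Interferon-gamma acts through its receptor, JAK kinases and STAT proteins, and induces the transcription factor IRF1. Many of its target genes carry a gamma-activated site (GAS), bound by STAT dimers, or an interferon-stimulated response element (ISRE), bound by IRF proteins. The GTPases are among its most strongly induced targets in mouse cells. They assemble on the vacuoles of intracellular bacteria and parasites and disrupt them. Within the IRG family, effectors such as Ifi47 (also called Irgd) and Iigp1 (Irga6) load onto pathogen vacuoles, whereas the regulators Irgm1, Irgm2 and Igtp (Irgm3) sit on the cell's own membranes and keep the effectors inactive there. GBPs are larger relatives of the dynamin superfamily that coat vacuoles and bacteria and take part in inflammasome activation. NKT cells make interferon-gamma themselves.

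The promoter sequences are shown first because most of the members with a sequence hold an interferon element there and Ifi47 holds none of those searched. RefSeq promoter windows of build GRCm38.p6, from 250 bases before to 50 after the annotated start, were matched for 7 of the 9 members. The ISRE core was searched as GAAANNGAAA on both strands, where it reads TTTCNNTTTC in reverse, and GAS as TTCNNNGAA, which reads the same on both. Matches of one motif may overlap each other, and matches of both are in capitals below. Stretches of 60 bases around the ISRE core are given for Igtp (chr11:58199492-58199551, plus strand), Irgm2 (chr11:58214883-58214942, plus), Irgm1 (chr11:48871418-48871477, minus), Gbp2 (chr3:142620574-142620633, plus) and Gbp3 (chr3:142559972-142560031, plus).
Igtp: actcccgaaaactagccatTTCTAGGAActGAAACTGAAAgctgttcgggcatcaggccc
Irgm2: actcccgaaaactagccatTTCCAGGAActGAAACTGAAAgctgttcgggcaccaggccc
Irgm1: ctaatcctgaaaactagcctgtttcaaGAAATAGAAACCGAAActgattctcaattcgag
Gbp2: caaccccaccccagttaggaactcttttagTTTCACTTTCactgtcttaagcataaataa
Gbp3: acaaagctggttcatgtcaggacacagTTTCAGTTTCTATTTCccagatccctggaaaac
The whole windows of 300 bases are given for Gbp7 (chr3:142530086-142530385, plus), the member with the most separate matches, and for Ifi47 (chr11:49076337-49076636, plus), the member that separated most between the groups.
Gbp7: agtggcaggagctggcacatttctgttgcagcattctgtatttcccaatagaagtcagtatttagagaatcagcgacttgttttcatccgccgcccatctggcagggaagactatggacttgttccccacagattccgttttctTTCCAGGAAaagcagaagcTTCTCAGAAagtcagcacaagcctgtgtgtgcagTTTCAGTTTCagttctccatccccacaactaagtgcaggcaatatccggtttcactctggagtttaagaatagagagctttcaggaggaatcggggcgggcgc
Ifi47: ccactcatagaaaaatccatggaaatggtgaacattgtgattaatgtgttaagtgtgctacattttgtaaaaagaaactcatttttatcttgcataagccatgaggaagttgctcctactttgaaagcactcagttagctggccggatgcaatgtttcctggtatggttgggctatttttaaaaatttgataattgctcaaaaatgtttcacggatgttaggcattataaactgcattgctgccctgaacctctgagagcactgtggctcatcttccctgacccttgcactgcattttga

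An ISRE core was found in 6 of the 7 members with a window, against 3.44% of all 32851 windows and 6 of 12 windows of their IRG and GBP relatives. Counted from the start, it lay between positions -64 and -15 in each of the 6. Irgm1 and Gbp3 each held 2 overlapping matches. GAS was found in 3 of the 7, Igtp, Irgm2 and Gbp7, against 8.3% of all windows and 4 of the 12 relatives. In Igtp and Irgm2, which are neighbours on chromosome 11, 2 bases lay between the GAS match and the ISRE core, and their windows shared an identical run of 61 bases. The Ifi47 window held neither motif. RefSeq lists 1 start for Ifi47 in the table used, and other starts were not examined. Gbp3 has a second listed start, whose window held no match. These letters are descriptions of sequence and do not show that a factor binds there. A link between the motifs, or their absence from the Ifi47 window, and the differences of the members was not tested.

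**Figure D1:**
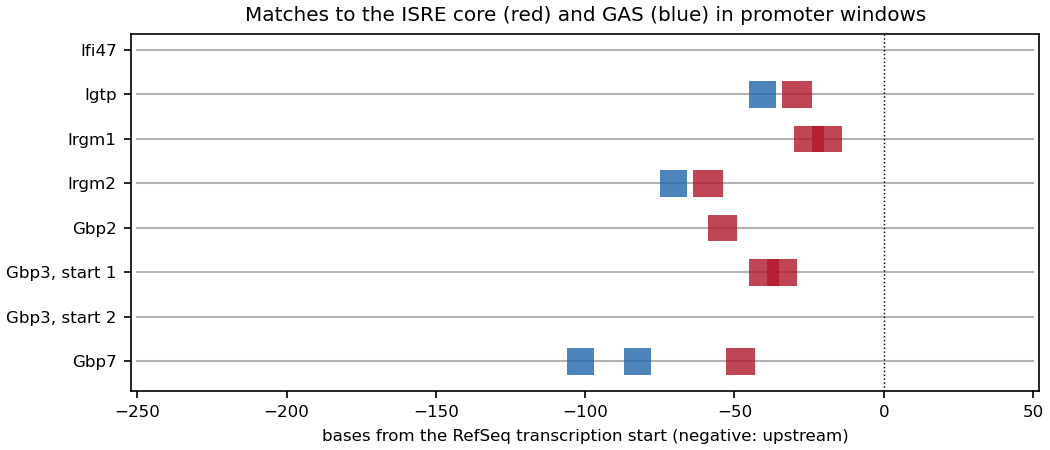
Positions of ISRE core (red) and GAS (blue) matches in the promoter windows of the 7 members with a window, in bases from the RefSeq start (dotted line). Every red block lies between positions -64 and -15, and the lines of Ifi47 and of the second Gbp3 start are empty.

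Each array's median intensity lay between 183 and 235, and between 36.4% and 40.7% of its 45281 probes were detected. Of the 9 measured NKT markers, among them Cd3e, Cd44, Klrb1c (which encodes NK1.1), Zbtb16 and Tbx21, 0 passed limma's test, 1 had an unadjusted p under 0.05, and all 9 met the detection rule. Markers of B cells were near background, with 1 of 5 detected and Ms4a1, Pax5, Cd22 and Blnk undetected. Of 17 myeloid markers 8 were detected, and Itgam, Itgax, Cd14, Adgre1 and Flt3 were not. Of 10 stromal and epithelial markers 3 were detected, with summed levels of 137.9 to 163.7 in DOCK8-deficient and 124.1 to 155.8 in wild type samples. The brightest Dock8 probe read 9.47 ± 0.05 in DOCK8-deficient and 9.48 ± 0.20 in wild type cells on the log2 scale (SD, n = 3 each). Its dimmer probes read 6.02 ± 0.64 against 5.61 ± 0.18 and 6.32 ± 0.36 against 5.94 ± 0.18, both with overlap. No Dock8 probe separated the groups, which rest on the labels, where the titles read DOCK8 knockout and wild type.

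Intensities were background corrected, quantile normalised and put on the log2 scale, and limma compared the groups over all 14559 detected probes with 1 gene symbol. Differences are DOCK8-deficient minus wild type, errors beside them are moderated standard errors, and p-values were adjusted over all 14559 probes with a threshold of 0.05. Of the 13 member probes 0 passed in limma, where 0.213% of all tested probes did. By direction, 0.0824% of all tested probes passed as lower and 0.131% as higher (12 and 19 probes, against 33 and 29 with arrays scaled to a common median). At an unadjusted p under 0.05 there were 2, or 15.4% against 10.1% of all tested probes. The groups did not overlap for 2 member probes lower in DOCK8-deficient cells, against 7.98% of all tested probes, and for 2 higher, against 7.97%. In sum 5 member probes read lower and 8 higher.

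Ifi47, an IRG effector, had the most negative difference of the 13 member probes, although the difference between it and the other members was not tested. Its scanner intensity, before any correction, was 3750, 1357 and 2119 on DOCK8-deficient arrays 1 to 3 and 4562, 4801 and 5444 on wild type arrays 1 to 3. After normalisation the log2 values were 11.53, 10.81 and 10.79 against 12.39, 12.09 and 12.17. All DOCK8-deficient values lay below all wild type values, and DOCK8-deficient replicate 1 stood nearest to the wild type arrays on both scales. The means were 11.04 ± 0.42 and 12.22 ± 0.16 (SD, n = 3 each), a difference of -1.18 ± 0.22 or 2.26-fold lower (95% interval -1.68 to -0.67). The unadjusted p of 0.00071 was the 92nd smallest of 14559, and 22 probes had a more negative difference. Its limma adjusted p of 0.11 missed the threshold. It passed without background correction (adjusted p = 0.0098), with arrays scaled to a common median (0.021), in the deposited log2 values (0.020), with a trended robust prior (0.0097) and without DOCK8-deficient replicate 1 (0.042), and ranged up to 0.39 over the 15 alternatives. The difference lay between -1.42 and -1.05 in all 15. It could not change where only the detection filter, the choice of probe, the prior or the block differed. The pass without background correction was among the earlier results known when the members were chosen.

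In these bulk samples, fewer cells of a type and less RNA per cell cannot be told apart. Of 5 measured markers of double-positive thymocytes, the precursors of NKT cells, all read lower, 1 of them (Dntt) with a direction fixed by the detection rule. The summed normalised level of the 5, Dntt included, was 1739 to 2064 in DOCK8-deficient and 2068 to 2594 in wild type samples. Dntt, which encodes the DNA polymerase of receptor gene assembly, was undetected on every DOCK8-deficient array and met the detection rule through the wild type arrays alone, so its direction was fixed by that rule and its pass (limma adjusted p = 0.044) is not counted here as support. The other 4, each by its brightest probe, were Cd4 (-0.05), Cd8b1 (-0.07), Rag1 (-0.49) and Cd1d1 (-0.77). Of these, 0 passed the test in limma and 1, Cd1d1, had an unadjusted p under 0.05. The dimmer Cd8b1 probes read lower than its brightest, at -0.75 ± 0.41 and -0.45 ± 0.36, both with overlap. Rag2, Ptcra and Cd8a were undetected. Of the 8 detected myeloid markers 5 read higher and 3 lower, with a median of 0.45 and 0 past the test in limma (2 at an unadjusted p under 0.05). Fcgr3 and Mpeg1 read higher without overlap, by 0.84 ± 0.20 and 0.76 ± 0.23. The 3 lower were S100a8 (-1.29 ± 1.37), S100a9 (-0.88 ± 0.85) and Csf1r (-0.16 ± 0.29), all with overlap. The 8 summed to 1308 to 2572 in DOCK8-deficient and 1146 to 1897 in wild type samples. The part of either cell type in the differences of the members was not tested.

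**Figure D2:**
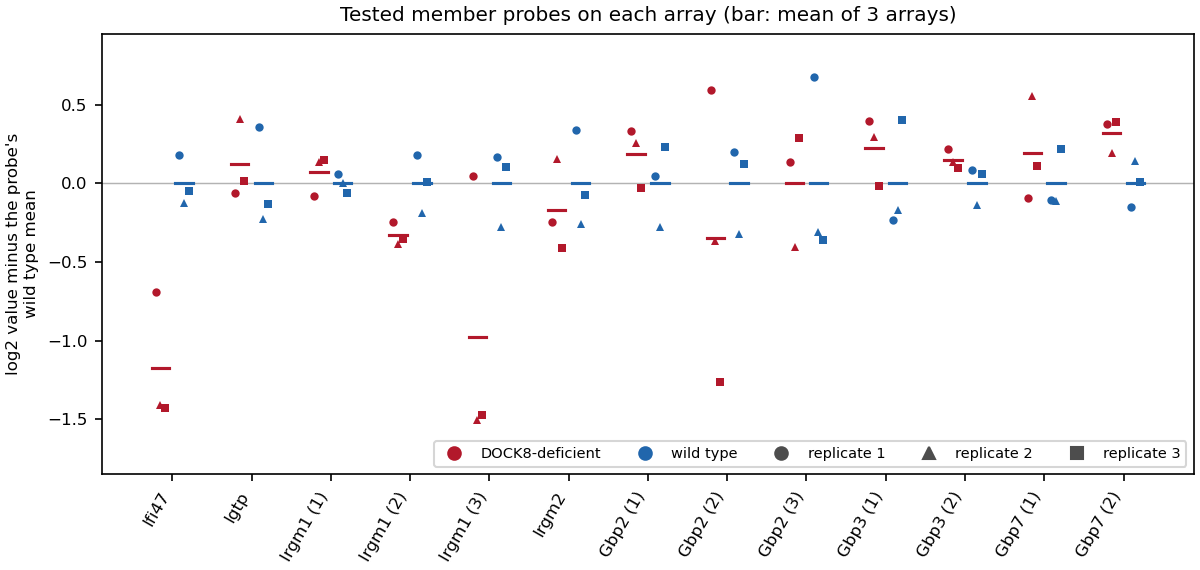
Normalised log2 value of each of the 13 tested member probes on each array, minus the probe's wild type mean (DOCK8-deficient red, wild type blue, 3 arrays each, bars the group means, symbols the replicate). Probes of a gene are numbered from the brightest. For Ifi47 all red points lie below the blue ones, with replicate 1 the highest of the red, and for Irgm1 (3) red replicate 1 lies among the blue points.

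The regulators of the IRG family overlapped between the groups on their brightest probes. Irgm1, which restrains the effectors and takes part in autophagy, was read by 3 probes that gave different answers. Its brightest probe read 13.97, 14.19 and 14.20 in DOCK8-deficient and 14.11, 14.05 and 13.99 in wild type samples, a difference of 0.07 ± 0.13 (adjusted p = 0.90). The groups overlapped there. The second probe read 10.27, 10.13 and 10.16 against 10.69, 10.33 and 10.53, a difference of -0.33 ± 0.14 (adjusted p = 0.50) without overlap. The third and dimmest read 7.47, 5.92 and 5.95 against 7.59, 7.14 and 7.53. There DOCK8-deficient replicate 1 lay among the wild type values, as the array nearest to them for Ifi47 too. Its difference was -0.98 ± 0.40 (adjusted p = 0.47), -0.34 without background correction (0.37), and -1.49 without DOCK8-deficient replicate 1 (0.060). The platform annotation assigns all 3 probes to the same RefSeq transcript. Why they gave different answers was not tested.

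Igtp (Irgm3), a second regulator, read 11.20, 11.67 and 11.27 in DOCK8-deficient and 11.62, 11.03 and 11.13 in wild type samples. The groups overlapped, with a difference of 0.12 ± 0.20 (95% interval -0.35 to 0.59, adjusted p = 0.89). Irgm2, the third regulator, read 10.43, 10.83 and 10.27 against 11.01, 10.42 and 10.60. The values of the groups were again interleaved, and the difference was -0.17 ± 0.21 (-0.65 to 0.32, adjusted p = 0.84). For both, the array with the highest value was DOCK8-deficient replicate 2 or wild type replicate 1. Both intervals hold differences of either sign.

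Of the 7 GBP probes tested, 6 read higher in DOCK8-deficient cells, by 0.00 to 0.32 on the log2 scale, the smallest of them turning sign without background correction, and 0 passed the test in limma (0 at an unadjusted p under 0.05). Gbp2, which coats Toxoplasma vacuoles in mouse cells, read 11.58, 11.51 and 11.22 on its brightest probe against 11.30, 10.97 and 11.49 in wild type samples. The difference was 0.19 ± 0.18 (95% interval -0.23 to 0.60, adjusted p = 0.78), and the groups overlapped. Its dimmer probes read -0.35 ± 0.42 and 0.00 ± 0.31 (adjusted p = 0.83 and 0.998). The former spanned 7.59, 6.63 and 5.73 over DOCK8-deficient replicates 1 to 3 and turned to 0.11 without replicate 3. The latter was the member probe just inside the detection rule, with detection p-values of 0.0256, 0.253 and 0.0246 on the DOCK8-deficient and 0.00641, 0.161 and 0.154 on the wild type arrays.

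Gbp3 was read by a pair of probes. The brighter gave 10.12, 10.02 and 9.71 against 9.49, 9.55 and 10.13, with wild type replicate 3 above every DOCK8-deficient array, and a difference of 0.22 ± 0.21 (adjusted p = 0.78). The other gave 9.76, 9.68 and 9.64 against 9.62, 9.40 and 9.60, a difference of 0.15 ± 0.13 without overlap (adjusted p = 0.76). Gbp7, which binds autophagy proteins and oxidase subunits in mouse macrophages, read 9.27, 9.92 and 9.48 against 9.26, 9.26 and 9.58 on its brighter probe, a difference of 0.19 ± 0.20 with overlap (adjusted p = 0.80). Its other probe read 8.26, 8.08 and 8.28 against 7.73, 8.03 and 7.90. All its DOCK8-deficient values were the higher, by 0.32 ± 0.14 or 1.25-fold (95% interval -0.01 to 0.65, adjusted p = 0.50).

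Iigp1 and Gbp6 gave no level. The brightest Iigp1 probe, just outside the detection rule, was detected on 1 array, DOCK8-deficient replicate 2, with a detection p of 0.016 against 0.22 to 0.634 on the other arrays. The other 3 Iigp1 probes and the Gbp6 probe were detected on 0 of 6 arrays. Members of both families are close paralogs, so a probe may also read a relative, and the probe sequences were not used here.

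**Figure D3:**
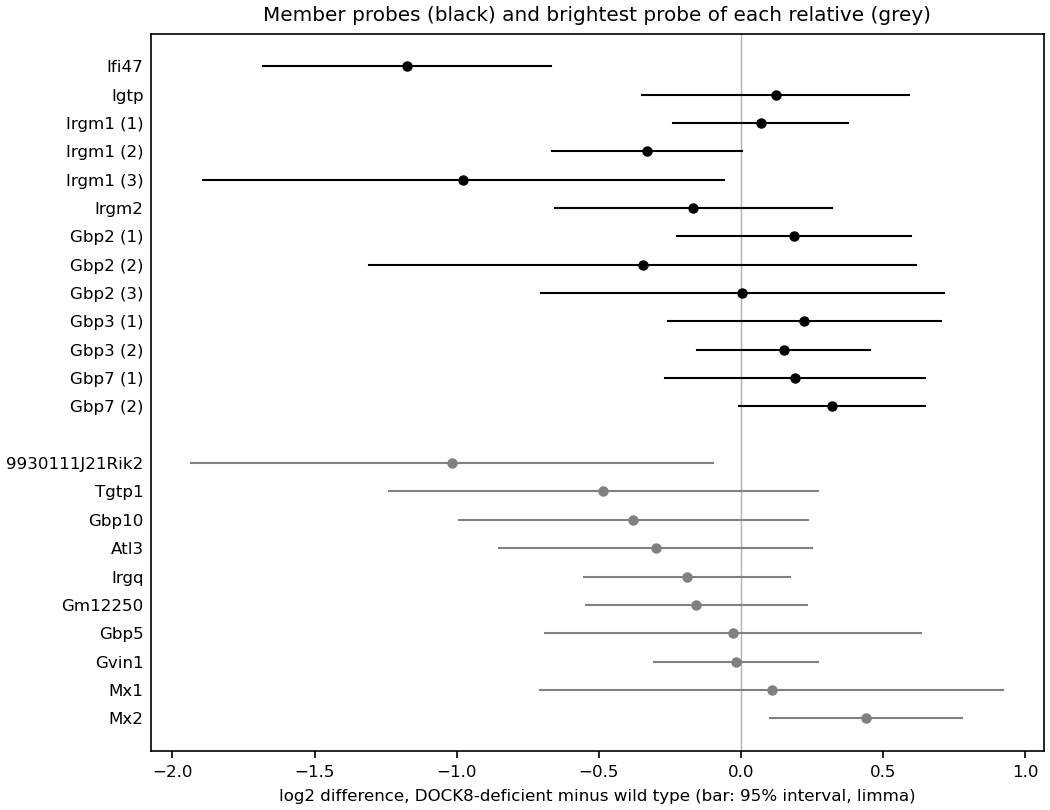
Log2 difference, DOCK8-deficient minus wild type, with limma's 95% interval, for the 13 tested member probes (black, numbered from the brightest of a gene) and for the brightest probe of each of 10 measured relatives (grey). The intervals of Ifi47 and of Irgm1 (3) lie below 0, as does that of 9930111J21Rik2, and the interval of Mx2 lies above 0. None passed after adjustment over 14559 probes.

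Relatives of the members were mostly dim. Of 19 other IRG, GBP and related genes with a probe, 10 were measured and 9 undetected, among them Gbp4, Gbp8, Gbp9 and Gbp11. By the brightest probe of each gene, 8 of the 10 read lower and 2 higher, with a median of -0.17, against 51% lower and a median of 0.00 over all 9060 genes. In limma 0 of them passed (0.265% of all genes did), and 2 had an unadjusted p under 0.05, against 10.2% of all genes. The largest difference was that of 9930111J21Rik2, at 6.58, 5.13 and 6.80 in DOCK8-deficient and 7.24, 7.33 and 6.99 in wild type samples. Its probe, like that of Gbp10, was detected on only 2 DOCK8-deficient arrays and on 3 wild type arrays. The SD was 0.905 in DOCK8-deficient and 0.175 in wild type samples. The groups did not overlap, and the difference was -1.02 ± 0.40 (adjusted p = 0.45). In RefSeq order on chromosome 11 this gene lies 2 protein-coding genes before Ifi47, and Tgtp1, an IRG effector, 3 before it. Tgtp1 read 7.60, 7.44 and 6.67 against 8.03, 7.09 and 8.04, with overlap and a difference of -0.48 ± 0.33 (adjusted p = 0.68). No other gene within 5 places of Ifi47 was measured. Gm12250, listed by RefSeq as Irgb10 and placed next to Igtp, read -0.16 ± 0.17 and Gbp5, beside Gbp7 on chromosome 3, -0.03 ± 0.29. The giant GTPase Gvin1, with values from 12.45 to 12.61 over the 6 arrays, read -0.02 ± 0.12. Gbp10 read -0.38 ± 0.27, Atl3 -0.30 ± 0.24, Irgq -0.19 ± 0.16 and Mx1 0.11 ± 0.35, all with overlap. Atl3 was read by 4 tested probes that disagreed, and one of the dimmer read 0.52 ± 0.16 without overlap (adjusted p = 0.32), higher where the brightest read lower. Mx2, like Mx1 an antiviral GTPase of the dynamin superfamily, read 0.44 ± 0.15 without overlap (adjusted p = 0.36).

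Next the pathway above the GTPases was compared. Ifng, the ligand itself, read higher in DOCK8-deficient cells on both of its probes, by 0.51 ± 0.20 on the brighter (12.03, 11.90 and 12.15 against 11.27, 11.95 and 11.31) and 0.30 ± 0.15 on the other. Wild type replicate 2 lay within the DOCK8-deficient range on the former. Neither probe passed (adjusted p = 0.46 and 0.57). The receptor chains Ifngr1 and Ifngr2 read 0.08 ± 0.15 and 0.10 ± 0.21, and the kinases Jak1 and Jak2 -0.18 ± 0.16 and 0.05 ± 0.18. The transcription factor Irf1, of the family that binds ISRE sequences, read 0.04 ± 0.12 on its brightest probe and -0.14 to -0.19 on the other 4. Irf2 read -0.05 ± 0.15 and Nlrc5, the activator of MHC class I genes, -0.02 ± 0.19. Irf8 read 0.42 ± 0.16 (adjusted p = 0.45) and Irf9, the DNA-binding partner of the type I response, -0.18 ± 0.14 and -0.54 ± 0.16 on its probes (0.72 and 0.31). Of 11 measured signalling genes, 6 read higher and 5 lower, with a median of 0.04 and 0 past the test in limma. At an unadjusted p under 0.05 there were 2, a level that 10.2% of all genes reached, here and for the lists that follow. The signalling list held 14 genes, of which 13 had a probe, and Batf2 and Ciita were undetected. No STAT gene was among the 11 measured, so this list does not cover that step of the pathway.

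Inhibitors of JAK-STAT signalling gave 9 lower and 3 higher of 12 measured, with a median of -0.06 and 0 passing (2 at an unadjusted p under 0.05 in limma). Socs3, an inhibitor induced by cytokines, read 0.63 ± 0.19 (limma adjusted p = 0.31) and Usp18, which restrains the type I receptor, 0.40 ± 0.16, both without overlap. Among the 9 lower, Pias4 read -0.24 ± 0.15 with overlap and Ptpn11 -0.13 ± 0.13 without. Socs1, the main inhibitor of interferon-gamma signalling, read 0.00 ± 0.21. Without overlap there were thus 2 higher and 1 lower, against 8.61% and 8.5% of all genes. Of 33 measured interferon-gamma targets that are not GTPases, 26 read higher and 7 lower, with a median of 0.10, and 0 passed in limma (2 at an unadjusted p under 0.05). The groups did not overlap for 4 of them higher and 1 lower, against 8.61% and 8.5% of all genes. Cxcl10, a chemokine for CXCR3, read 0.71 ± 0.16 on its brighter probe and 1.47 ± 0.22 on a dimmer one (limma adjusted p = 0.16 and 0.069). The dimmer probe was detected on 3 DOCK8-deficient arrays and 1 wild type array. It met the detection rule through the group where it read higher, so its difference is not counted here as support. Pdcd1lg2, a ligand of PD-1, read 0.49 ± 0.18, Parp9 0.28 ± 0.14 and Gch1, the first enzyme of tetrahydrobiopterin synthesis, 0.40 ± 0.20. Cxcl9, Cxcl11, Ido1 and Nos2 were undetected. Of the myeloid markers given above, 5 read higher and 3 lower, with a median of 0.45, and their part in these values was not tested.

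The list for type I interferon, mainly induced genes, also held signalling genes such as the receptor chain Ifnar2 and the kinase Tyk2. Of its 34 measured genes, 24 read higher and 10 lower, with a median of 0.06. In limma 0 passed, although 10 of the 34 had an unadjusted p under 0.05, against 10.2% of all genes. The groups did not overlap for 8 higher and 3 lower, against the same 8.61% and 8.5% of all genes. Bst2, which tethers budding virus, read 0.69 ± 0.17, whereas Ifitm1 and Ifitm3, which block viral entry, read -0.82 ± 0.22 and -0.75 ± 0.20 (adjusted p from 0.20 to 0.26). These 3 genes passed with a trended robust prior. Zbp1, a sensor of nucleic acids, read 0.41 ± 0.13 without overlap (adjusted p = 0.33). Of 23 measured partners of the GTPases, mainly the ubiquitin-like conjugation and autophagy genes that direct them to vacuoles, 17 read lower and 6 higher, with a median of -0.05 and 0 passing (1 at an unadjusted p under 0.05 in limma). Lgals3, a galectin that marks broken vacuoles, read 0.73 ± 0.21 (adjusted p = 0.30), Uba7, the activating enzyme for ISG15, -0.30 ± 0.14, Atg3 0.20 ± 0.14 and Atg12 -0.15 ± 0.13.

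**Figure D4:**
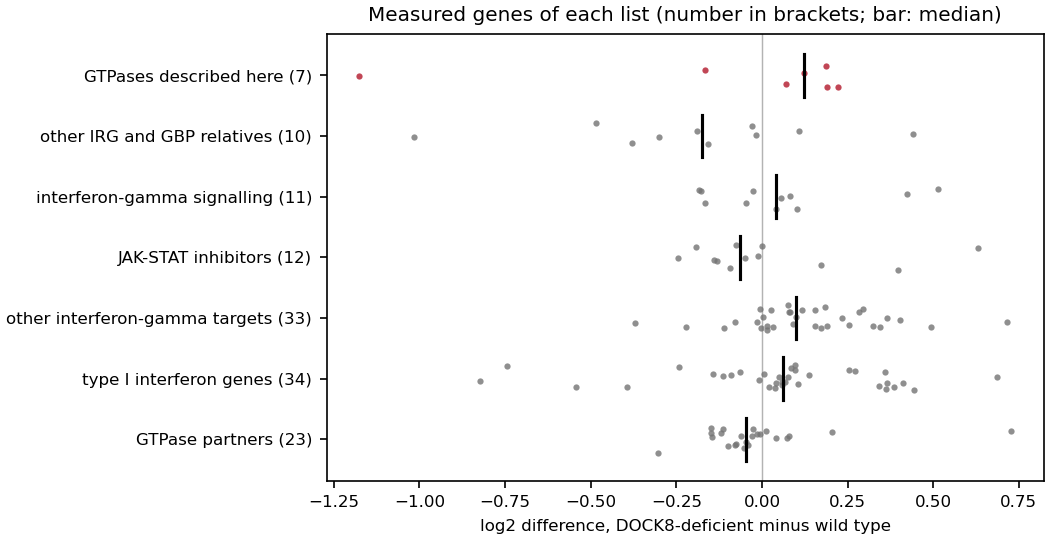
Log2 difference, DOCK8-deficient minus wild type, of the brightest tested probe of each measured gene in 7 lists, with the number of genes in brackets and a bar at the median. The medians lie between -0.17 and 0.12, and Ifi47 is the lowest point at -1.18.

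The same elements were then counted over the 7436 tested genes with a promoter window. Of 293 genes with an ISRE core, 1 passed, 49.1% read lower and the median difference was 0.01. For 629 genes with GAS, 3 passed, 49.1% read lower and the median was 0.01. Over all 9060 genes, with a window or without, 24 (0.265%) passed, 51% read lower and the median was 0.00.

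The mean of the 7 measured members, each by its brightest probe and centred on its own mean, varied by 0.321 on the log2 scale over the 6 arrays. It was lowest on DOCK8-deficient replicate 3 (-0.19) and wild type replicate 2 (-0.13) and highest on wild type replicates 1 and 3 (0.13 and 0.12), so the arrays of the groups were interleaved. Among all other tested probes, the 5 nearest to this profile belonged to Brd3, Ubr1, Suz12, Mterf4 and Sppl2c, with root mean square differences of 0.0257 to 0.0371 over 6 samples. The 5 nearest to Ifi47 alone, a comparison chosen after its values were seen, belonged to St6galnac4, Klhl3, Fads1, Sfxn4 and Il4, at 0.106 to 0.192. These probes were read on the same 6 arrays, and likeness over so few arrays is a description only.

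**Figure D5:**
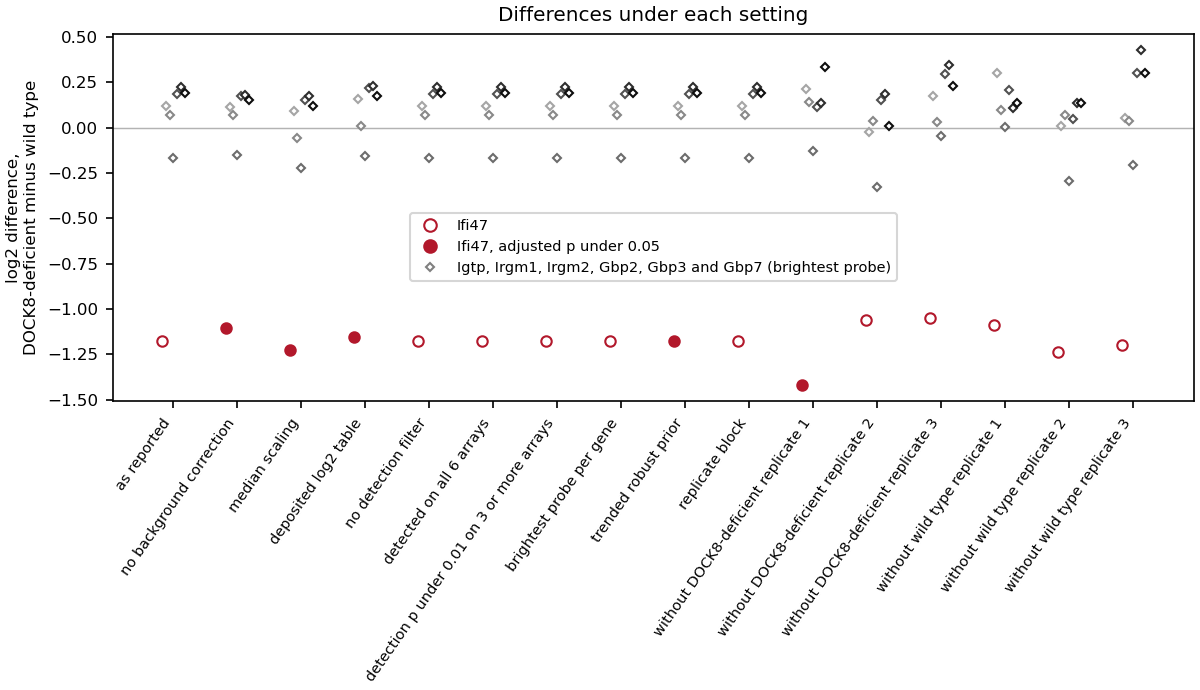
Log2 difference, DOCK8-deficient minus wild type, of the brightest probe of each measured member as reported and under 15 alternative settings. Ifi47 (red, filled where the adjusted p was under 0.05) lies between -1.42 and -1.05, and the other 6 members (grey) between -0.33 and 0.43.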

How the data were processed

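Biotin-labelled cRNA from total RNA was hybridised to Illumina mouse arrays, per the labels' protocols. The deposited scanner table, named non-normalized, gives 1 linear intensity per probe and array. Beside each intensity stands the scanner software's detection p-value, as the authors deposited it. A second deposited table gives log2 values, judged from their range. Its ranks match the scanner intensities array by array (rank correlation at least 0.999999), its array medians lie between 6.14 and 6.22, and how it was normalized was not given in the sources used here. Samples were grouped by their titles.

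Intensities were processed with neqc of limma 3.58.1 in R 4.3.3 (normexp, with negative controls estimated through the detection p-values, offset 16, quantile normalization, log2). Of 45281 probes, 34885 had 1 symbol in the platform annotation, 18 several and 10378 none listed, and the last 2 kinds were left out. lmFit and eBayes were 2-sided with Benjamini-Hochberg adjustment, and the functions were tested on simulated data. Gene lists used the brightest tested probe of each gene with p-values adjusted over all probes. Genes named are all members, all measured relatives, signalling and inhibitor genes where a result is described, the 4 genes of smallest p in each other list, Dock8, cell type markers, and the probes of most like pattern. The members and lists were chosen with earlier results of these data known. Promoter sequences and gene order came from RefSeq, build GRCm38.p6. A genome build for the probes was not given in the sources used here. Precision is limited by the number of arrays.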

Additional observations from a re-analysis of the deposited data

How the results depend on the processing

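The count of probes past the threshold, 31 as reported, was 155 without background correction, 62 with median scaling, 112 in the authors' log2 values, 9 without the detection filter, 59 with detection on all 6 arrays, 50 with a detection p under 0.01, 191 with a trended robust prior, and 1 to 16 with 1 array left out (16, 6 and 4 without DOCK8-deficient replicates 1, 2 and 3, and 2, 5 and 1 without wild type replicates 1, 2 and 3). The count of member probes past it was 0 as reported and 1, always Ifi47, without background correction, with median scaling, in the deposited table and with a trended robust prior, and 0 to 1 with 1 array left out. Of 123 tested genes in the 6 lists of relatives, pathway, targets and partners, cell type markers aside, 0 passed as reported and 3 with a trended robust prior. Over 187 recomputed differences of the 13 member probes, 173 kept direction and side of the threshold, 5 passed it (all Ifi47) and 9 changed sign, none of them past the threshold. Changing only the detection filter, probe choice, prior or block could not alter a difference, only its adjusted p. The sign changes were Irgm2 (-0.33 to 0.0011 with 1 array left out), the dimmest Gbp2 probe (-8e-04 without background correction, -0.18 to 0.34 with 1 array left out), the second Gbp2 probe (-0.81 to 0.11 likewise), Igtp (-0.022 to 0.30 likewise) and the brightest Irgm1 probe (-0.0552 with median scaling). The cause was not tested. With the replicate number as a block 0 probes passed, 0 of them members, and the difference of Ifi47 stayed at -1.18 by construction. Same-numbered samples of the groups deviated with correlations of 0.03, -0.09 and -0.25, and other pairs with -0.219 to 0.332. The numbers showed no pairing here, but with 3 centred arrays per group these correlations cannot settle it. A slide block was not run, since the table names no slide. Dim probes near background, such as the third of Irgm1, are limited by their signal.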
